A study of Arabidopsis thaliana with 12 samples.

Results

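The 7 stress NAC genes of the ATAF type encode plant transcription factors that share a NAC DNA-binding domain, and they were chosen by their AGI codes from the 28496 genes of the deposited leaf table. They fall into 2 subgroups. *ATAF1* (AT1G01720), *ATAF2* (AT5G08790), *NAC032* (AT1G77450) and *NAC102* (AT5G63790) form the ATAF subgroup, and *NAC019* (AT1G52890), *NAC055* (AT3G15500) and *NAC072* (AT4G27410, also called RD26) form the other. RNA of Arabidopsis leaves was sequenced in 12 samples, 3 for each of 4 genotypes, and each sample held 2 leaves. ADR1-L2 D484V, called *ADR1-L2 DV* below, expresses an activation mimic of the helper immune receptor ADR1-L2 from the native promoter of that gene in the *adr1-l2-4* mutant. The lines ADR1-L2 D484V 26.6 and ADR1-L2 D484V 30.4, called *sadr1-26.6* and *sadr1-30.4*, carry the same transgene in the same mutant and in addition a mutated *SADR1*, a TIR-NB-LRR receptor gene found in a suppressor screen of that line. Col-0 is the wild type without the transgene, and all mutants are in its background. Plants grew in short days, and plant age is not stated. The deposited table holds 1 pooled whole-number read value per gene and genotype, with no value per sample, so no SD stands beside the values and no test between genotypes could be run. The 95% intervals below are exact intervals for counting error only, and they leave out the variation between plants and between the 3 experiments.

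NAC factors of this type bind DNA as dimers and are induced by wounding, drought, abscisic acid, jasmonate or pathogens. *NAC019*, *NAC055* and *NAC072* are known as targets of the jasmonate regulator MYC2, through which the bacterial toxin coronatine restrains salicylic acid accumulation, and as activators of chlorophyll breakdown. *ATAF1* and *ATAF2* act in abscisic acid, defense and senescence responses, and *NAC032* and *NAC102* in responses to oxidative stress and reactive carbonyls.

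*NAC019* and *NAC055* are shown by sequence because they had the largest ratios of *ADR1-L2 DV* to Col-0 among the 7, and because a G-box (CACGTG), the element that MYC2 binds, lies in both genes near the annotated start. Stretches of 30 bases around it are printed 5′ to 3′ on the strand of the gene, read from TAIR10.1, with the G-box in capitals. That of *NAC019* is chr1:19698591-19698620 on the minus strand and lies before the annotated gene start, with the G-box beginning 126 bases before it. That of *NAC055* is chr3:5234492-5234521 on the plus strand and lies within the first exon, with the G-box beginning at base 48.
NAC019: atctaactgacaCACGTGtcagaattcaaa
NAC055: ctctaattgatcCACGTGtcatgataaaca
The surrounding stretches of both genes align over 102 bases, of which 84 are identical, with 19 gap positions. The region after the start was looked at once the windows before it had been seen. A G-box within the first 100 transcribed bases was found in *NAC055* only among the 7 genes, and in 2.16% of 27443 protein-coding genes.

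The window from 250 bases before to 50 after the gene start of *NAC019* is printed to show where the other elements lie, with every match to the motifs named next in capitals (chr1:19698433-19698732, minus strand).
NAC019: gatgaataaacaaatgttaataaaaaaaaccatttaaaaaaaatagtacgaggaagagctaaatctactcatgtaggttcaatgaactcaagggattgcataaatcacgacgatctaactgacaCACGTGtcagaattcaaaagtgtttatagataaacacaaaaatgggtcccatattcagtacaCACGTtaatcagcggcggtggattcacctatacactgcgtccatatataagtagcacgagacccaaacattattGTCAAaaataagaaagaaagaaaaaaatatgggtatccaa
In this window, searched on both strands, the G-box CACGTG occurred in 2 of the 7 genes, *NAC019* and *NAC032*, and in 7.68% of all windows of that length. That of *NAC032*, whose ratio of *ADR1-L2 DV* to Col-0 was 0.959, begins 50 bases before the gene start. A link between the G-box and these ratios was not tested. The abscisic acid element core ACGTG, which every G-box also contains, occurred in *NAC019*, *NAC032* and *NAC072*, and in 26.7% of all windows. The W-box core TTGAC, bound by WRKY factors, occurred in 5 of the 7 and in 50.5% of all windows. The TGA factor core TGACG occurred in *NAC032* and *NAC102*, and in 23.1% of all windows. The letters CATGTG, a NAC recognition sequence, were in none of the 7 windows and in 12.9% of all.

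On TAIR10.1, *ATAF1* lies on chromosome 1 (267993 to 269819, plus strand), *NAC032* on chromosome 1 (29099839 to 29101759, plus), *NAC019* on chromosome 1 (19696923 to 19698482, minus), *NAC055* on chromosome 3 (5234457 to 5236196, plus), *NAC072* on chromosome 4 (13707192 to 13709170, minus), *ATAF2* on chromosome 5 (2858849 to 2860558, minus) and *NAC102* on chromosome 5 (25526509 to 25528281, minus). All 7 genes were read in leaves, at levels that differed over more than an order of magnitude. Pooled reads were scaled by the median of ratios between genotypes and, to compare genes, divided by exon length in kilobases. In *ADR1-L2 DV* the per-kilobase order was *ATAF2* at 1009 scaled reads, *NAC102* at 772, *ATAF1* at 407, *NAC019* at 320, *NAC072* at 233, *NAC055* at 128 and *NAC032* at 80.4. In Col-0 *ATAF2* was again read most per kilobase, at 572 scaled reads (interval 534 to 612), followed by *NAC102* at 452, *ATAF1* at 221, *NAC072* at 129 and *NAC032* at 83.8. *NAC019* at 17.6 and *NAC055* at 2.71 (interval 0.737 to 6.93) were lowest. *NAC019* and *NAC055* thus stood above *NAC032* in *ADR1-L2 DV*, while they were the lowest pair in Col-0. Neighbours in these orders lay apart beyond their counting intervals, in all 4 genotypes, with 1 exception. In *sadr1-30.4* the per-kilobase levels of *ATAF2* at 390 scaled reads (interval 359 to 423) and *NAC102* at 344 (interval 315 to 375) overlapped.

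**Figure D1:**
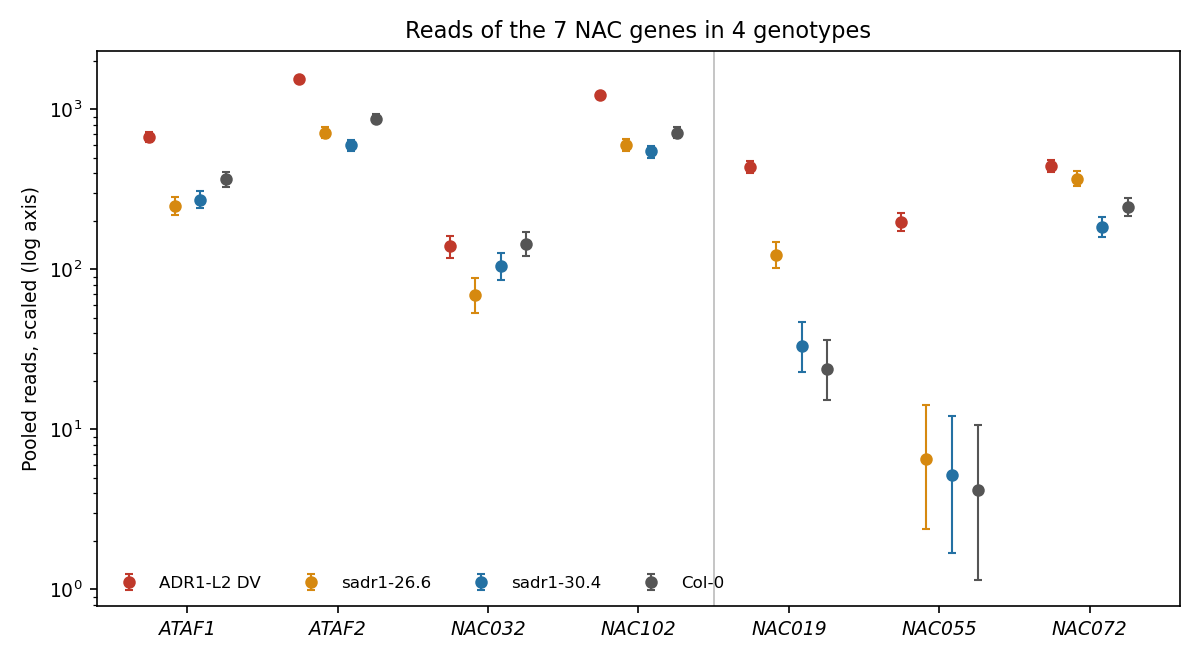
Pooled reads of the 7 NAC genes after scaling between genotypes, on a log axis, for *ADR1-L2 DV*, *sadr1-26.6*, *sadr1-30.4* and Col-0 from left to right within each gene; points are 1 pooled value per genotype and bars are 95% Poisson counting intervals. *NAC019* and *NAC055* are far above Col-0 in *ADR1-L2 DV*, and *NAC019* alone of these stays well above it in *sadr1-26.6*, at 124 scaled reads against 24.0.

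The first comparison asked how the activation mimic changes these genes. *NAC019* and *NAC055* were much higher in *ADR1-L2 DV* than in Col-0, *ATAF1*, *ATAF2*, *NAC102* and *NAC072* were higher by less than 2-fold, and *NAC032* was at the Col-0 level. A gene was counted as different when its scaled reads, with a pseudocount of 1, differed by at least 2-fold, among 18048 genes with at least 40 reads over the 4 genotypes. By this rule 2 of the 7 genes were higher and 0 were lower, where 7.38% of all genes were 2-fold higher and 7.57% were 2-fold lower. The median log2 ratio was 0.85 over the 7 genes and 0.0052 over all genes.

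*NAC019* had 510 pooled reads in *ADR1-L2 DV*, 114 in *sadr1-26.6*, 32 in *sadr1-30.4* and 23 in Col-0. It was 18.1-fold higher in *ADR1-L2 DV* than in Col-0 (interval 12 to 28.9). *NAC055*, its nearest relative, had 231 pooled reads in *ADR1-L2 DV*, 6 in *sadr1-26.6*, 5 in *sadr1-30.4* and 4 in Col-0. Its ratio of *ADR1-L2 DV* to Col-0 was 47.2-fold (interval 18.2 to 175), and the width of this interval comes from the 4 reads in Col-0. *NAC055* reached the minimum of 40 reads only through *ADR1-L2 DV*, so that it could not have entered the count without being higher there. *NAC072*, the third gene of this subgroup and a regulator of desiccation responses, had 518 pooled reads in *ADR1-L2 DV*, 340 in *sadr1-26.6*, 178 in *sadr1-30.4* and 235 in Col-0. Its ratio was 1.80-fold (interval 1.54 to 2.11), an order of magnitude below those of its relatives.

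In the ATAF subgroup, *ATAF2* had 1810 pooled reads in *ADR1-L2 DV*, 660 in *sadr1-26.6*, 575 in *sadr1-30.4* and 839 in Col-0, and *ADR1-L2 DV* was 1.76-fold above Col-0 (interval 1.62 to 1.92). *NAC102* had 1434 pooled reads in *ADR1-L2 DV*, 552 in *sadr1-26.6*, 526 in *sadr1-30.4* and 687 in Col-0, a ratio to Col-0 of 1.71 in *ADR1-L2 DV* (interval 1.56 to 1.87). *ATAF1* had 788 pooled reads in *ADR1-L2 DV*, 230 in *sadr1-26.6*, 263 in *sadr1-30.4* and 350 in Col-0, with a ratio of 1.84 in *ADR1-L2 DV* (interval 1.62 to 2.09). These genes were highest in *ADR1-L2 DV*, and both suppressors were below Col-0. *NAC032* had 163 pooled reads in *ADR1-L2 DV*, 64 in *sadr1-26.6*, 101 in *sadr1-30.4* and 139 in Col-0. Its ratio of *ADR1-L2 DV* to Col-0 was 0.959 (interval 0.760 to 1.21), so that, alone of the 7, it had an interval of this ratio that included 1. Its log2 ratio was -0.06, and 0.15 by total reads.

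The size of the smaller increases depended on the scaling. Total reads in place of the median of ratios shifted the median of all genes in *ADR1-L2 DV* against Col-0 by 0.21 (log2), and 5 of the 7 genes then passed 2-fold. By total reads the log2 ratio was 1.09 for *ATAF1*, 1.06 for *NAC072* and 1.03 for *ATAF2*, while *NAC102* at 0.98 stayed inside. Without per-sample values it cannot be told whether all 3 pools of plants, or 1 of them, carried an increase.

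**Figure D2:**
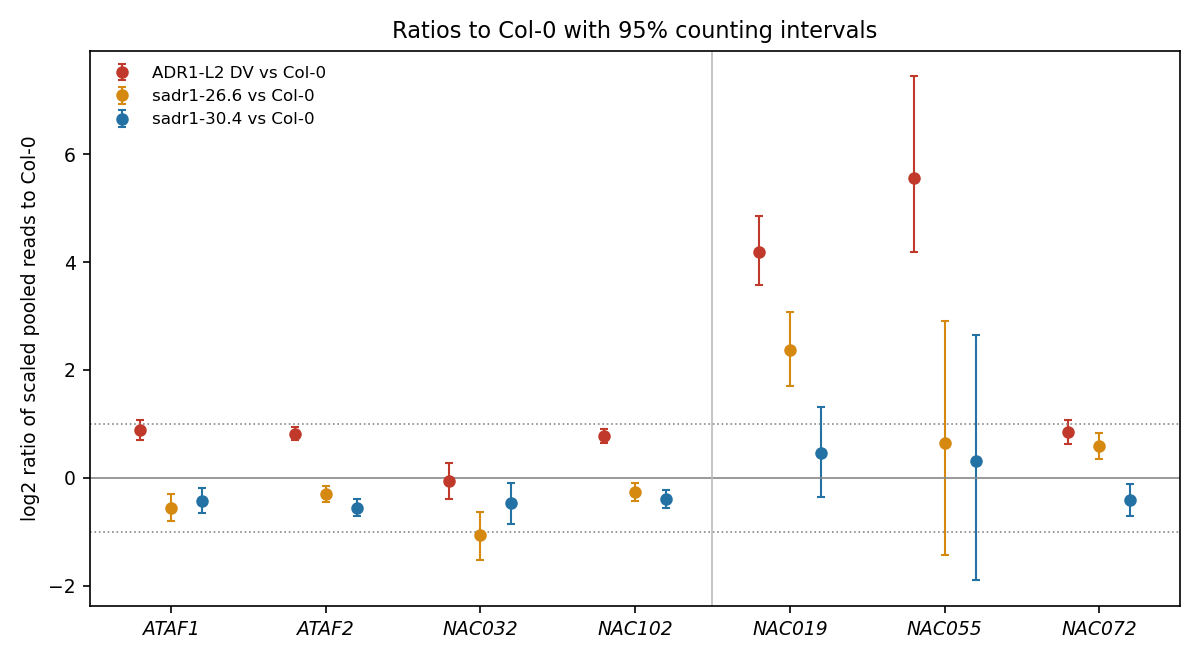
Ratios of scaled pooled reads to Col-0 for each gene, on the log2 scale without a pseudocount, for *ADR1-L2 DV*, *sadr1-26.6* and *sadr1-30.4* from left to right; bars are 95% exact binomial counting intervals and dotted lines mark 2-fold. *NAC019* lies at 4.18, 2.36 and 0.47, *NAC055* at 5.56, 0.64 and 0.31, and the ATAF subgroup is below 0 in both suppressors.

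The second question was how near these genes lay to the Col-0 level in the suppressor lines. Both lines come from a mutant screen, and other mutations in them were not examined here. The authors mapped both *SADR1* mutations to a region that cosegregated with suppression. They also report that a CRISPR-Cas9 allele of *SADR1* suppressed the stunted growth and *PR1* expression of *ADR1-L2 DV*. That allele is not among these samples, so the part of *SADR1* itself in the values of the 7 genes was not tested. In *sadr1-26.6*, 1 of the 7 genes, *NAC019*, was 2-fold higher than in Col-0 and 1, *NAC032*, was 2-fold lower, where 1.85% and 2.35% of all genes were. In *sadr1-30.4*, 0 of the 7 genes were 2-fold higher and 0 were 2-fold lower, where 1.30% and 2.23% of all genes were. All comparisons with Col-0 share its pooled value, so chance deviations of Col-0 enter each of them.

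*NAC019* stayed above Col-0 in *sadr1-26.6*, at 5.15-fold above Col-0 (interval 3.27 to 8.45). In *sadr1-30.4* its ratio to Col-0 was 1.38, with an interval of 0.785 to 2.48 that included 1. *NAC055* was near its Col-0 level in both suppressors, but its few reads left wide intervals. Its ratio to Col-0 was 1.56 in *sadr1-26.6* (interval 0.369 to 7.51) and 1.24 in *sadr1-30.4* (interval 0.268 to 6.26). The interval in *sadr1-26.6* also covers the 5.15-fold of *NAC019*, so a ratio of that size lies within the counting error of *NAC055* there. *NAC072* was 1.5-fold above Col-0 in *sadr1-26.6* (interval 1.27 to 1.78), while in *sadr1-30.4* it was 1.33-fold lower (interval 1.09 to 1.62).

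The 4 genes of the ATAF subgroup were below Col-0 in both suppressors. In *sadr1-26.6* the log2 ratios to Col-0 were -1.05 for *NAC032*, -0.55 for *ATAF1*, -0.29 for *ATAF2* and -0.26 for *NAC102*. In *sadr1-30.4* they were -0.55 for *ATAF2*, -0.47 for *NAC032*, -0.42 for *ATAF1* and -0.39 for *NAC102*. Each of these 8 values had a counting interval below 0. *NAC032* in *sadr1-26.6*, with 64 reads, was 2.09-fold below Col-0 (interval 1.54 to 2.86). Summed over the ATAF subgroup, scaled reads were 3579 in *ADR1-L2 DV*, 1632 in *sadr1-26.6*, 1520 in *sadr1-30.4* and 2102 in Col-0. Over *NAC019*, *NAC055* and *NAC072* they were 1074 in *ADR1-L2 DV*, 498 in *sadr1-26.6*, 223 in *sadr1-30.4* and 273 in Col-0. Over all genes the median log2 ratio to Col-0 was 0.0018 in *sadr1-26.6* and 0.0048 in *sadr1-30.4*.

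Against *ADR1-L2 DV*, all 7 genes had lower scaled reads in both suppressors. In *sadr1-26.6*, 5 of the 7 were 2-fold lower than in *ADR1-L2 DV* and 0 were 2-fold higher, where 7.85% and 7.16% of all genes were. In *sadr1-30.4*, 6 of the 7 were 2-fold lower and 0 were 2-fold higher, where 9.67% and 8.96% of all genes were. *NAC055* entered both counts only through its reads in *ADR1-L2 DV*, so its fall there was fixed by the minimum. With a minimum of 400 reads, which leaves *NAC055* out, 4 genes were 2-fold lower in *sadr1-26.6* and 5 in *sadr1-30.4*. *NAC055* was 30.3-fold lower in *sadr1-26.6* than in *ADR1-L2 DV* (interval 13.7 to 83.5) and 38.0-fold lower in *sadr1-30.4* (interval 16.1 to 118). *NAC019* was 3.52-fold lower in *sadr1-26.6* (interval 2.87 to 4.35) and 13.1-fold lower in *sadr1-30.4* (interval 9.17 to 19.4). For *ATAF1* the values were 2.70-fold in *sadr1-26.6* and 2.46-fold in *sadr1-30.4*, for *ATAF2* 2.16-fold and 2.59-fold, and for *NAC102* 2.05-fold and 2.24-fold, all below *ADR1-L2 DV*. *NAC072* was 1.2-fold lower in *sadr1-26.6* (interval 1.04 to 1.38) and 2.39-fold lower in *sadr1-30.4* (interval 2.01 to 2.85). *NAC032*, which *ADR1-L2 DV* had left at the Col-0 level, had a log2 ratio to that line of -0.99 in *sadr1-26.6*, just inside the rule, and of -0.41 in *sadr1-30.4*. By total reads it passed in *sadr1-26.6*, at -1.25.

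The suppressor lines were also set against each other. *NAC019* was 3.72-fold lower in *sadr1-30.4* than in *sadr1-26.6* (interval 2.50 to 5.69), the only one of the 7 past 2-fold downwards, with 0 past it upwards, where 2.08% and 1.94% of all genes were. *NAC072* lay just inside the rule, at a log2 ratio of *sadr1-30.4* to *sadr1-26.6* of -0.99 (interval without pseudocount -1.27 to -0.73). In the ATAF subgroup *NAC032* went the other way, 1.51-fold higher in *sadr1-30.4* (interval 1.09 to 2.1). For *ATAF1* the ratio was 1.09 (interval 0.914 to 1.31) and for *NAC102* 0.912 (interval 0.808 to 1.03), and both intervals included 1. For *ATAF2* it was 0.834, with an interval of 0.744 to 0.934 below 1.

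Some close relatives did not keep fixed proportions between genotypes. The coding sequences of *NAC019* and *NAC055* shared 80.4% of aligned bases and those of *ATAF2* and *NAC102* 81.7%, the highest values among the 7. With gap positions counted, *NAC019* and *NAC055* shared 75.9% and *ATAF2* and *NAC102* 63.7%. Reads of *NAC019* per kilobase exceeded those of *NAC055* by 2.50-fold in *ADR1-L2 DV* (interval 2.14 to 2.93), 21.5-fold in *sadr1-26.6* (interval 9.59 to 59.9), 7.25-fold in *sadr1-30.4* (interval 2.80 to 23.8) and 6.51-fold in Col-0 (interval 2.23 to 25.9). The intervals of *ADR1-L2 DV* and *sadr1-26.6* did not overlap, whereas those of *ADR1-L2 DV* and Col-0 did. *ATAF1* exceeded *NAC032* per kilobase by 5.06-fold in *ADR1-L2 DV* (interval 4.27 to 6.03) and by 2.64-fold in Col-0 (interval 2.16 to 3.23). *ATAF2* and *NAC102* moved in near parallel, with ratios per kilobase of 1.31 in *ADR1-L2 DV*, 1.24 in *sadr1-26.6*, 1.13 in *sadr1-30.4* and 1.27 in Col-0. How reads matching more than 1 relative were counted is not stated.

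Some of the genes overlap others on the opposite strand, and the strand setting of the counting is not stated. *NAC102* shares 85 bases with *SHA1* (AT5G63780), which had 394 pooled reads in *ADR1-L2 DV*, 823 in *sadr1-26.6*, 1520 in *sadr1-30.4* and 1247 in Col-0. Relative to Col-0, *SHA1* and *NAC102* thus differed in opposite directions in *ADR1-L2 DV* and *sadr1-30.4*, while both were lower in *sadr1-26.6*. *ATAF2* shares 158 bases with AT5G08780, at 66 to 97 reads in the 4 genotypes. *ATAF1* shares 28 bases with AT1G01725, at 186 reads in *ADR1-L2 DV* and 80 in Col-0. It also shares 344 bases with AT1G04043, for which the deposited data give no read value. The other 4 genes overlap no annotated gene.

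Within the NAC family as a whole, *NAC055* had the highest and *NAC019* the third-highest ratio of *ADR1-L2 DV* to Col-0. Of 115 annotated NAC genes in the table, 58 had at least 40 reads, and 18 of these (31.0%) were 2-fold higher in *ADR1-L2 DV* and 4 were 2-fold lower, beside 7.38% and 7.57% of all genes. Without the 7 genes it was 16 of 51 (31.4%), but 3 of the 16, *NAC100*, *NAC085* and *NAC080*, reached the minimum of 40 reads only through *ADR1-L2 DV*, as *NAC055* did. In *sadr1-26.6*, 5 of the 58 were 2-fold higher than in Col-0 and 9 were 2-fold lower, beside 1.85% and 2.35% of all genes. *NAC019* was not the highest of these 5. AT3G29035 was, at a log2 ratio of 3.32, and it was at 4.65 in *ADR1-L2 DV* and 2.15 in *sadr1-30.4*. By the distance over the 3 log2 ratios to Col-0, the NAC gene outside the 7 most like *NAC019* was *NAC092* (ORE1), a regulator of leaf senescence. *NAC092* had 218 pooled reads in *ADR1-L2 DV*, 70 in *sadr1-26.6*, 10 in *sadr1-30.4* and 14 in Col-0, at a distance of 1.06. For *NAC055* the nearest such gene was *NAC047* at a distance of 2.02, for *NAC102* *NTM1* at 0.161, for *ATAF2* *NAC001* at 0.199, for *ATAF1* *NTM1* at 0.375, for *NAC072* *NAC041* at 0.511 and for *NAC032* *NAC096* at 0.707. Within the 7, *ATAF2* was nearer to *NAC102*, at 0.17, and *ATAF1* to *ATAF2*, at 0.297, than either was to the gene named for it. *NTM1*, a membrane-tethered NAC factor, had 132 pooled reads in *ADR1-L2 DV*, 55 in each suppressor and 70 in Col-0. Closest to the median profile of the 7 genes, among genes with at least 800 reads, were AT5G42050, *FLOT1*, *HSF A4A*, *CRT3* and *EXO70E2*, at distances of 0.072 to 0.098. AT5G42050 had 13106 pooled reads in *ADR1-L2 DV*, 4808 in *sadr1-26.6*, 4784 in *sadr1-30.4* and 6155 in Col-0.

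**Figure D3:**
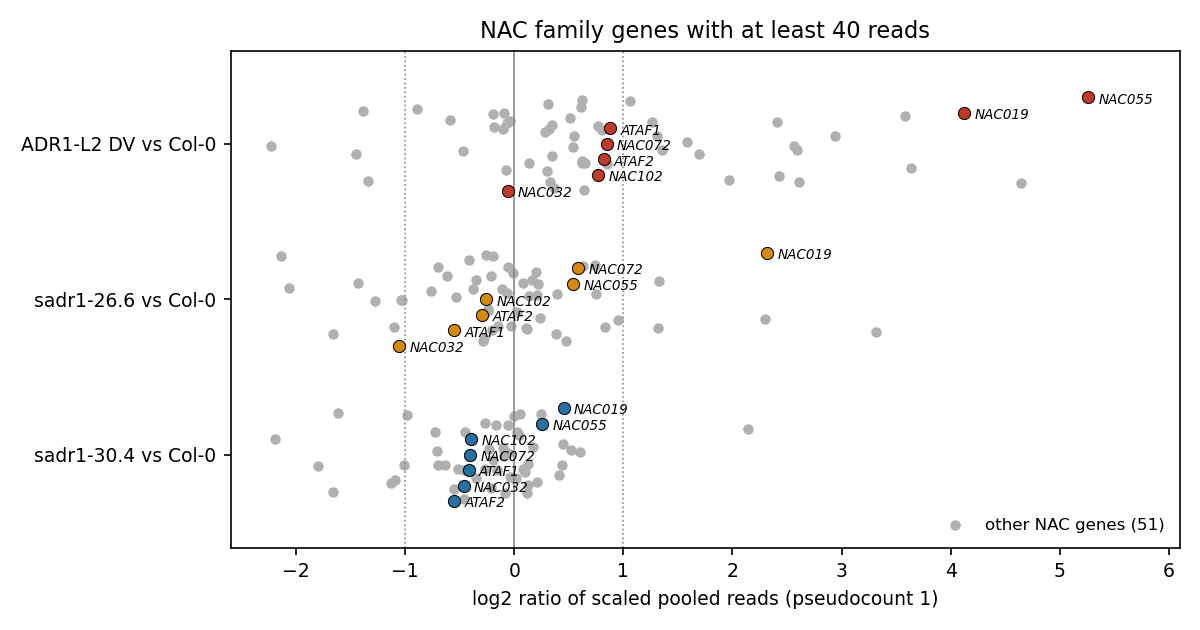
Log2 ratios to Col-0 (pseudocount 1) of the 58 NAC genes with at least 40 reads, for *ADR1-L2 DV*, *sadr1-26.6* and *sadr1-30.4* from top to bottom; the 7 genes are named and coloured, the other 51 are grey, and vertical position within a line has no meaning. In *ADR1-L2 DV*, *NAC055* and *NAC019* stand at 5.26 and 4.13 beside other raised NAC genes, while 5 of the 7 lie below 1.

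The genes of regulators known to act on these NAC genes were compared next. This list and those that follow were chosen with earlier results of these data known, so their counts are descriptive. Of 15 listed upstream regulators, 0 were 2-fold higher and 1 was 2-fold lower in *ADR1-L2 DV* than in Col-0, near the 7.38% and 7.57% of all genes, with a median log2 ratio of 0.34. *MYC2* had 2375 pooled reads in *ADR1-L2 DV*, 3120 in *sadr1-26.6*, 1938 in *sadr1-30.4* and 1673 in Col-0. Its log2 ratio to Col-0 was 0.22 in *ADR1-L2 DV* and 0.95 in *sadr1-26.6*. *MYC4*, a MYC2 relative, with 775 pooled reads in *ADR1-L2 DV* and 1271 in Col-0, was the gene that passed, at 2.01-fold lower, and it had a log2 ratio of -0.79 by total reads. The TGA factor gene *TGA5* (0.94) and the ethylene regulator gene *EIN3* (0.79) had the highest log2 ratios of *ADR1-L2 DV* to Col-0 in this list and passed 2-fold only by total reads.

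Genes described as targets of ATAF-type factors, activated and repressed ones together, were often higher. The list was chosen with earlier results of these data known, so its counts are descriptive, and action of the NAC factors on these genes was not tested. Of 18 with at least 40 reads, 10 were 2-fold higher and 2 were 2-fold lower in *ADR1-L2 DV* than in Col-0, beside 7.38% and 7.57% of all genes, with a median log2 ratio of 1.18. *NIT2*, a nitrilase gene bound by ATAF2, had 4945 pooled reads in *ADR1-L2 DV*, 17 in *sadr1-26.6*, 10 in *sadr1-30.4* and 20 in Col-0. *LKR/SDH*, a lysine catabolism gene activated by NAC072, had 2685 pooled reads in *ADR1-L2 DV*, 359 in *sadr1-26.6*, 66 in *sadr1-30.4* and 70 in Col-0. *LKR/SDH* and *NAC092*, described as a target of ATAF1, thus stayed above Col-0 in *sadr1-26.6*, with log2 ratios of 2.40 and 2.30, and were near Col-0 in *sadr1-30.4*, as *NAC019* was. *NIT2* was not above Col-0 in either suppressor. Of the 18 targets, 4 were 2-fold higher than in Col-0 in *sadr1-26.6* and 2 in *sadr1-30.4*, beside 1.85% and 1.30% of all genes. The other two in *sadr1-26.6*, and both in *sadr1-30.4*, were *VSP1* and *BAS1*. *VSP1*, a jasmonate-induced vegetative storage protein gene, had 51 pooled reads in *ADR1-L2 DV*, 146 in *sadr1-26.6*, 127 in *sadr1-30.4* and 13 in Col-0, and was thus higher in the suppressors than in *ADR1-L2 DV*. *BAS1*, a brassinosteroid-inactivating enzyme gene, had 54 pooled reads in *ADR1-L2 DV*, 50 in *sadr1-26.6*, 54 in *sadr1-30.4* and 20 in Col-0. *SGR1*, the chlorophyll-degrading magnesium dechelatase gene, was at a log2 ratio of 1.46 in *ADR1-L2 DV*, and *NYC1* (0.61) and *PAO* (0.41), the other chlorophyll breakdown genes listed, stayed under 2-fold. *ICS1* is the salicylic acid synthesis gene that *NAC019*, *NAC055* and *NAC072* are known to repress. It had 4377 pooled reads in *ADR1-L2 DV*, 1708 in *sadr1-26.6*, 1103 in *sadr1-30.4* and 2380 in Col-0, and a link to the NAC genes was not tested. *BSMT1*, which methylates salicylic acid and is known to be activated by the same factors, had at most 2 reads in any genotype. *NCED3*, an abscisic acid synthesis gene bound by ATAF1, was at a log2 ratio of -1.03, and *ABCG40*, an abscisic acid importer gene, at -2.42, in *ADR1-L2 DV*. *ABCG40* was also at -2.48 in *sadr1-26.6* and -3.57 in *sadr1-30.4*, with 2590 pooled reads in Col-0.

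**Figure D4:**
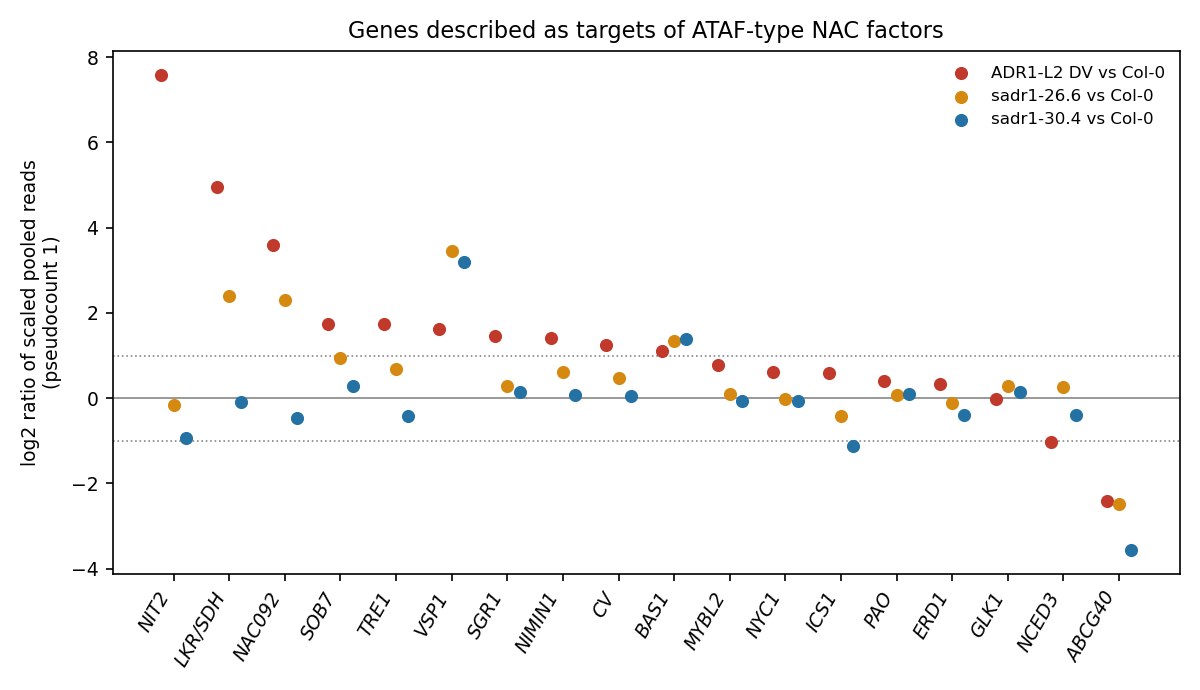
Log2 ratios to Col-0 (pseudocount 1) of 18 genes described as targets of ATAF-type NAC factors, ordered by *ADR1-L2 DV*, with *ADR1-L2 DV*, *sadr1-26.6* and *sadr1-30.4* from left to right in each gene; dotted lines mark 2-fold. *NIT2*, *LKR/SDH* and *NAC092* are highest in *ADR1-L2 DV* at 7.59, 4.95 and 3.58. *LKR/SDH*, *NAC092* and *VSP1* lie above 2 in *sadr1-26.6*, and *VSP1* also in *sadr1-30.4*.

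Genes of the stress hormones did not share one direction, and all counts stand beside 7.38% of all genes 2-fold higher and 7.57% 2-fold lower. These lists are not independent of the target list. *VSP1* is also in the jasmonate list, and *ICS1* and *NIMIN1* are also in the salicylic acid list. *NIMIN1* thus counts among the 2-fold higher genes of both. Of 13 abscisic acid and drought genes, 2 were 2-fold higher and 6 were 2-fold lower in *ADR1-L2 DV* than in Col-0, with a median log2 ratio of -0.77. *HAI1*, a phosphatase gene induced by abscisic acid, had 455 pooled reads in *ADR1-L2 DV*, 120 in *sadr1-26.6*, 31 in *sadr1-30.4* and 70 in Col-0, while *COR15A* (-4.16) and *KIN1* (-3.77) had the lowest log2 ratios of *ADR1-L2 DV* to Col-0. Of 11 jasmonate genes, 3 were 2-fold higher and 4 were 2-fold lower, among them *JAZ1*, a repressor of MYC2, at a log2 ratio of 1.24, and *CORI3* at -3.97. Of 10 salicylic acid genes, 6 were 2-fold higher and 0 were 2-fold lower, led by *SARD1* at a log2 ratio of 2.20. The other 4 included *PR1*, with 24106 pooled reads in *ADR1-L2 DV*, 5947 in *sadr1-26.6*, 2005 in *sadr1-30.4* and 11475 in Col-0. They also included *PR5*, with 24775, 8044, 9543 and 21151 in the same order. Of 7 measured detoxification genes, which the NAC032 and NAC102 pathway is known to serve, 2 were 2-fold higher and 1 was 2-fold lower. These were *UGT74E2* with 68 pooled reads in *ADR1-L2 DV* and 3 in Col-0, *AKR4C9* with 50 in *ADR1-L2 DV* and 5 in Col-0, and *OPR1* with 579 in *ADR1-L2 DV* and 1024 in Col-0. *UGT74E2* and *AKR4C9* reached the minimum of 40 reads only through *ADR1-L2 DV*, so nothing is read from their count.

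The pooled values summed to between 20013826 and 21277026 reads per genotype. *ADR1-L2*, which the transgene encodes, had 8543 pooled reads in *ADR1-L2 DV*, 3254 in *sadr1-26.6*, 1855 in *sadr1-30.4* and 1148 in Col-0. Its log2 ratio to Col-0 was 1.56 in *sadr1-26.6* and 0.68 in *sadr1-30.4*. It was thus past 2-fold above Col-0 in *sadr1-26.6* only among the suppressors, as *NAC019* was, and a link between them was not tested. *SADR1* had 339 to 699 reads in the 4 genotypes. The 4 leaf markers summed to 575100 scaled reads in *ADR1-L2 DV* and to between 869200 and 945500 in the other genotypes. The 5 vascular markers summed to 4115 scaled reads in *ADR1-L2 DV* and to between 6059 and 7044 in the others, and the 4 guard cell markers to between 677 and 822. Among the guard cell markers only *TMM* passed 2-fold, at 83.6 scaled reads in *ADR1-L2 DV* against 30.2 in Col-0. Trichome markers ranged from 131 in *ADR1-L2 DV* to 246 in Col-0, with *GL1* at 0 in every genotype. The others went opposite ways. *GL2* had 81.0 scaled reads in *ADR1-L2 DV* against 37.6 in Col-0, and *TRY* 49.5 against 208.6. Root, flower and seed markers held at most 30 reads per list. Leaf and vascular markers were thus lower in *ADR1-L2 DV*, where the NAC genes other than *NAC032* were higher, and their part in the values was not tested. In bulk leaves, fewer cells of a type and less RNA per cell cannot be told apart.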

How the data were processed

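Leaf RNA of 12 samples, 3 per genotype in 4 genotypes, was sequenced by the authors, who deposited 1 table of 28496 genes. The table gives 1 whole-number value per gene and genotype, headed RPKM. Since the deposited values are whole and differ in their sum between genotypes, they were read as counts of reads pooled over a genotype's samples; whether they are sums or means is not stated. The submitters' processing notes name TAIR10; the aligner, counter, multi-read and strand settings are not stated. A further 6 columns hold log2 fold changes and FDR p-values of the authors' own comparisons and were not used.

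Counts were scaled by the median of ratios. Ratios took a pseudocount of 1, and a 2-fold difference among 18048 genes with at least 40 reads over the genotypes was the rule for counting a gene. Pooled values leave no residual degrees of freedom, so no model was fitted and 6 comparisons are given as ratios with exact Clopper-Pearson intervals at 95%. The intervals were tried only on simulated Poisson counts without variation between plants or from PCR, so that trial does not show how they cover such variation. PCR reads without molecular identifiers are not independent molecules, so intervals cover counting error only. TMM factors came from edgeR 4.0.16. Scripts ran under Python 3.11.15 with scipy 1.17.1 and Biopython 1.88.

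Gene models and sequences came from the RefSeq annotation and genome of TAIR10.1, matched by AGI code. Coding sequences were aligned globally. The members and gene lists were chosen with earlier results of these data known. Named genes are the 7 members, up to 4 per direction from each list with the largest ratio of *ADR1-L2 DV* to Col-0 past 2-fold, *ADR1-L2*, *SADR1* and the nearest profiles; other genes were named after their values were seen. Alternatives were total-read and TMM scaling, pseudocounts of 0.5 and 5, a 1.5-fold rule, and minimums of 1 and 400 reads.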

Additional observations from a re-analysis of the deposited data

How the results depend on the processing

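Under TMM scaling, pseudocounts of 0.5 and 5, and no minimum beyond 1 read, each count over the 7 genes stayed within 1.5 times its value. By total reads, 5 of the 7 genes were 2-fold higher in *ADR1-L2 DV* than in Col-0, in place of 2. Among the related lists, total reads moved upstream regulators to 2 higher and 0 lower, described targets to 1 lower and detoxification genes to 0 lower, in *ADR1-L2 DV* against Col-0. With a 1.5-fold rule, 6 of the 7 genes were higher in *ADR1-L2 DV* than in Col-0, 2 were higher in *sadr1-26.6* than in Col-0, and in *sadr1-30.4* against *sadr1-26.6* 1 was higher and 2 were lower. With a minimum of 400 reads, *NAC055* dropped out and 1 of the 7 was higher in *ADR1-L2 DV*. No paired analysis was possible because the table holds 1 pooled value per genotype, and for the same reason leaving out single replicates was not run. The reads of *NAC055* outside *ADR1-L2 DV*, 4 to 6 per genotype, limit what can be said of it in the suppressors.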
